A study of Homo sapiens with 8 samples.

Results

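The HLA class II genes analysed here were 10 named loci on the short arm of chromosome 6: HLA-DRA, HLA-DRB1, HLA-DQA1, HLA-DQB1, HLA-DOB, HLA-DMB, HLA-DMA, HLA-DOA, HLA-DPA1 and HLA-DPB1. They were chosen by name, and all 10 were found among the 20035 protein-coding genes of the RefSeq annotation (GRCh38.p14, the assembly of hg38). The histone variant macroH2A1, known for broad domains that often hold silent genes, was mapped by CUT&RUN, which cuts and sequences the DNA around an antibody's target. The cells were HepG2, 1 human hepatoblastoma line, transfected with siRNA against ANP32B, a histone chaperone (siANP32B), or with a control siRNA (siControl), and taken 3 days later. All were cryopreserved before the reaction, which used a home-made antibody. There were 2 anti-macroH2A1 libraries for each siRNA, and the 4 IgG libraries of the series were not analysed here. No RNA or protein values were used, so the knockdown of ANP32B was not checked.

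The class II genes encode the heterodimers by which antigen-presenting cells such as B cells, dendritic cells and macrophages show peptides to CD4+ T cells. HLA-DR, HLA-DQ and HLA-DP molecules carry the peptides, HLA-DM exchanges the placeholder peptide CLIP for antigen peptides, and HLA-DO restrains HLA-DM. Their promoters share an X box, bound by the RFX complex, and a Y box, bound by NF-Y, on which the coactivator CIITA assembles. Hepatocytes do not normally express these genes, which interferon gamma can induce in many cell types. Domain lists do not measure RNA, so neither the expression of these genes nor the liver identity of the cells could be read from them.

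Each anti-macroH2A1 library has a deposited list of broad domains, whose ends fall on multiples of 1 kb and which carry a caller's score. The covered share is the percent of a gene's annotated span that lies in a domain. Read totals are not in these files, so the depth behind each value is unknown and no interval is given. With 2 libraries against 2, the two-sided exact permutation test used throughout cannot give a p below 0.333. Whether replicates are separate cultures is not in the labels, and the spread between them may be technical.

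The promoters of 4 members are shown, from the 3 kinds of gene found below. HLA-DPB1 lay in a domain in every library, HLA-DMB and HLA-DMA in 3 of 4, and HLA-DQB1 in none. Each window runs 5′ to 3′ on the gene's strand over 300 bases, from 250 before to 50 after the annotated start, and comes from RefSeq (GRCh38.p14). Capitals mark CCAAT on either strand, the core of the Y box, and one form of the X box, written as CC, G, AC and ATG in this order with 2 free bases between each and the next, also searched on both strands.
HLA-DPB1, chr6:33075740-33076039, plus strand: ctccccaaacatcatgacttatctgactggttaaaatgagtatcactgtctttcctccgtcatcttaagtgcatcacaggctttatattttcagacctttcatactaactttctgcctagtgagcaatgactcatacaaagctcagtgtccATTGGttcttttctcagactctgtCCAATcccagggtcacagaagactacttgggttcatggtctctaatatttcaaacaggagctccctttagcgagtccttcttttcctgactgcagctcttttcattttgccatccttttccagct
HLA-DMB, chr6:32940979-32941278, minus strand: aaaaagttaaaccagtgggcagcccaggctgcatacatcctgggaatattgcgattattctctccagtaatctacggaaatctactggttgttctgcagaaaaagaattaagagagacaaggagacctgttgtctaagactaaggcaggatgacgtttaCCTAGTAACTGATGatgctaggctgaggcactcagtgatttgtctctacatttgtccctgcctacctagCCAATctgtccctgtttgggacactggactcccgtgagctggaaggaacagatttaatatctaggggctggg
HLA-DMA, chr6:32953048-32953347, minus strand: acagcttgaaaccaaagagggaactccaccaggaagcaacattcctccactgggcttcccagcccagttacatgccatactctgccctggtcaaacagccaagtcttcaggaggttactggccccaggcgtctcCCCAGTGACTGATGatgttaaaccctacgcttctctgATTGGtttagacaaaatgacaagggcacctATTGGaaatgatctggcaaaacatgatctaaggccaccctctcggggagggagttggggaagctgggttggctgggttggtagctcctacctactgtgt
HLA-DQB1, chr6:32666608-32666907, minus strand: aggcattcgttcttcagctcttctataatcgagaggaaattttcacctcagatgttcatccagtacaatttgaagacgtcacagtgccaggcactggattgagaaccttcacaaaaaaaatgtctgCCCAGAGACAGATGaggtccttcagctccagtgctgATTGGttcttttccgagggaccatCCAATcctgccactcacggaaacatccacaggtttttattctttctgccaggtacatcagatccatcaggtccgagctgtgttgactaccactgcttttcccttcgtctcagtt

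In the HLA-DQB1 window the X box form began at base 127 and CCAAT letters at bases 163 and 187. In HLA-DMA they began at base 135 and at bases 172 and 202, and in HLA-DMB at bases 160 and 229. The HLA-DPB1 window held CCAAT at bases 152 and 176 and no match to this X box form. Promoter windows were matched for 9 of the 10 members, all but HLA-DRA, and HLA-DPA1 has 2 of them. CCAAT was found in windows of 8 of these 9 members and in 34.6% of all 35116 promoter windows. The X box form was found in 3 of the 9 and in 0.561% of all windows. All 3 are among the windows shown, which therefore do not stand for the motifs of their kinds. HLA-DRB1, HLA-DQA1 and HLA-DOB held no match to it. The 2 motifs share no letters where both occur, and a match is a description of the letters, not a site. HLA-DQB1, with both motifs, had no domain, while HLA-DPA1, with neither in its windows, lay in one in all 4 libraries. Of the 10 member windows, 7 lay fully in a domain in both siANP32B libraries and 6 and 5 in the siControl libraries, whereas of all windows 31.1% and 27.9% did in siANP32B and 27.7% and 22.3% in siControl libraries.

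In the class II interval macroH2A1 domains were found over the DP, DO and DM genes and HLA-DRA, and not over the DRB1 and DQ genes. HLA-DOA, HLA-DPA1 and HLA-DPB1 lay fully in a domain in all 4 libraries. HLA-DRB1, HLA-DQA1 and HLA-DQB1 had no covered base in any library. The other 4 genes, HLA-DRA, HLA-DOB, HLA-DMB and HLA-DMA, were fully covered in both siANP32B libraries and varied between the siControl libraries. Of all protein-coding genes, 6.70% were fully covered in all 4 libraries and 46.9% had no covered base in any. The members with a domain, 4.24 to 16.2 kb long, were shorter than the domains over them. From here on, before and after a gene mean lower and higher positions on the chromosome, whatever the strand of the gene.

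**Figure D1:**
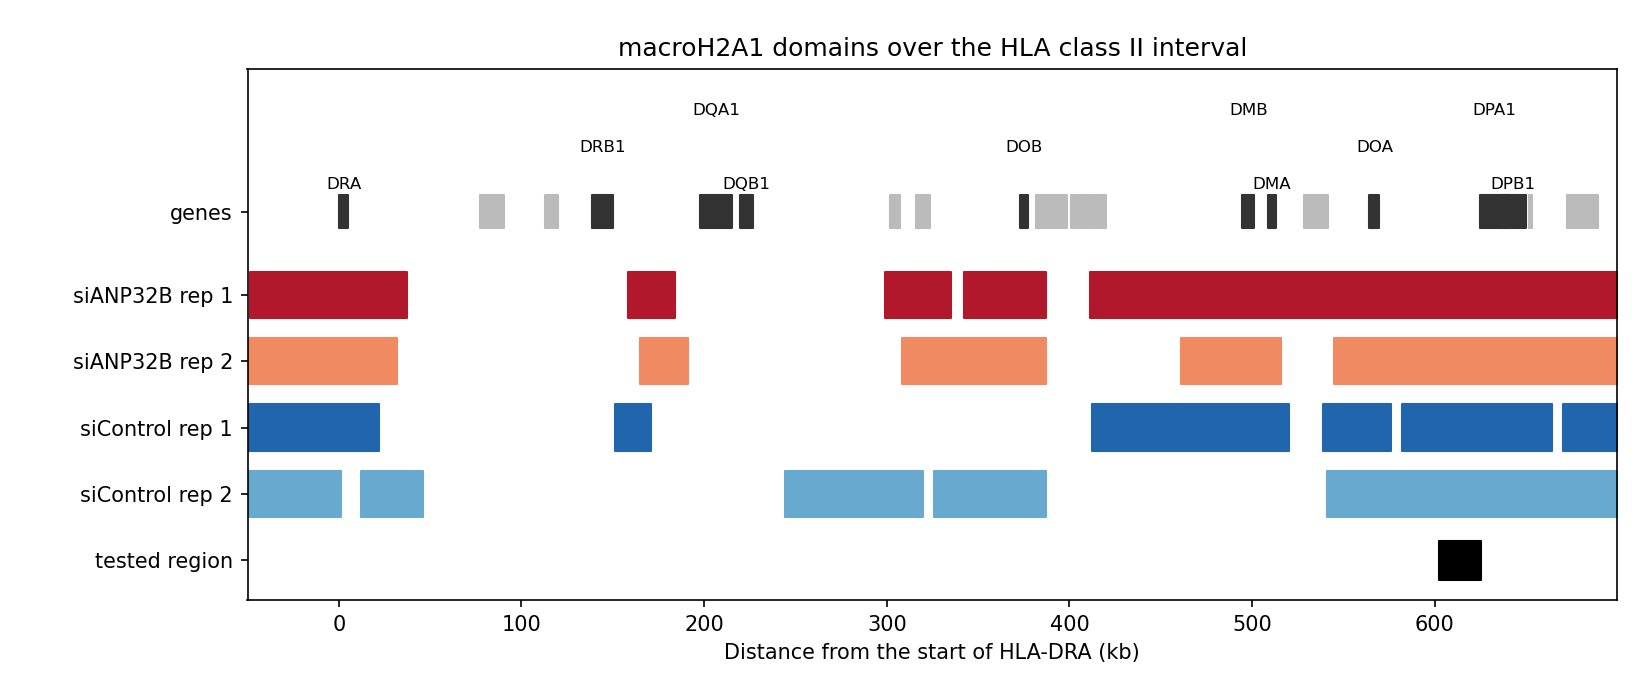
Domains of each anti-macroH2A1 library (coloured bars) along the class II interval, with member genes in dark grey, some other class II loci and neighbours in light grey and the tested region of the authors' table at the bottom; the horizontal axis is the distance in kb from the start of HLA-DRA. Domains cover the DP genes at the right in every library, and no library has a domain over HLA-DRB1, HLA-DQA1 or HLA-DQB1.

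The interval from 50 kb before HLA-DRA to 50 kb after HLA-DPB1 spans 749.8 kb, from 32389887 to 33139696 on chromosome 6 (hg38). Domains took up 481.7 and 396.8 kb of it in the siANP32B libraries, against 348.8 and 380.8 kb in the siControl libraries. Both siANP32B libraries were above both siControl libraries. The means were 439.3 ± 60.0 kb in siANP32B and 364.8 ± 22.6 kb in siControl libraries (SD, n = 2 each), a difference of 74.4 kb that was 32.0 kb without siANP32B replicate 1 and 116.9 kb without siANP32B replicate 2 (exact permutation p = 0.333, two-sided). When the genome was cut into 4108 windows of the same length, 22.6% had both siANP32B libraries above both siControl libraries and 8.84% had both below. With only domains above a score of 72.4 in every list, the difference was -75.5 kb. The means were 13 kb in siANP32B and 88.5 kb in siControl libraries. Some domains lay close to that limit. In the siControl lists those scoring 72.6 and 73.4 were kept, and the HLA-DRA domain of siControl replicate 2, at 72.3, was not. A domain of siANP32B replicate 1 scoring 74.3 was kept as well. This limit treats the scores as comparable between lists, which is not known, and left 3529 and 3287 domains in siANP32B and 5683 and 6083 in siControl lists.

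The class II interval held more domain sequence than the genome as a whole in each library. Domains covered 64.2% and 52.9% of the interval in siANP32B libraries and 46.5% and 50.8% in siControl libraries. Chromosome 6 was covered by 27.0% and 28.4% in siANP32B and by 24.8% and 23.5% in siControl libraries. The whole genome was covered by 18.3% and 18.1% in siANP32B and by 16.8% and 15.1% in siControl libraries. The mean over the 4 libraries, 402.0 kb, was above that of 93.0% of the windows of the same length, assembly gaps included.

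**Figure D2:**
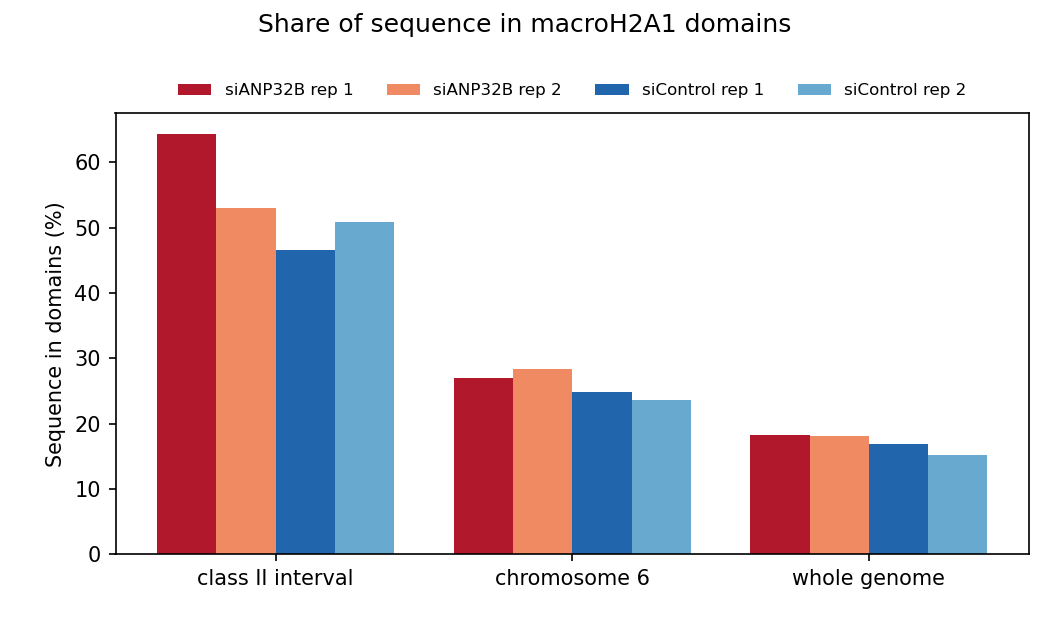
Percent of sequence in macroH2A1 domains for the class II interval, chromosome 6 and the whole genome, 1 bar per library with no error bar. The bars of the interval stand between 46.5% and 64.2%, above those of chromosome 6 (23.5% to 28.4%) and of the genome (15.1% to 18.3%) in each library.

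Averaged over the 10 members, the covered share was 70% in both siANP32B libraries, against 60% and 42.2% in the siControl libraries. The means were 70% ± 0 in siANP32B and 51.1% ± 12.6 in siControl libraries (SD, n = 2 each; exact permutation p = 0.333, two-sided). The difference of 18.9 percentage points was 10.0 points without siControl replicate 2 and 27.8 points without siControl replicate 1. With only domains above a score of 72.4 it was -15.0 points. Over all protein-coding genes the mean covered share was 25.2% and 21.5% in siANP32B and 20.9% and 17.3% in siControl libraries, and the median gene was at 0% in all 4. The number of fully covered members was 7 in both siANP32B libraries and 6 and 4 in the siControl libraries. No single member had both siANP32B libraries above both siControl libraries or both below. Over all protein-coding genes 8.98% had the first and 2.92% the second, so none among 10 adjacent genes is near these shares. Each of the 7 members fully covered in both siANP32B libraries was also fully covered in a siControl library.

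**Figure D3:**
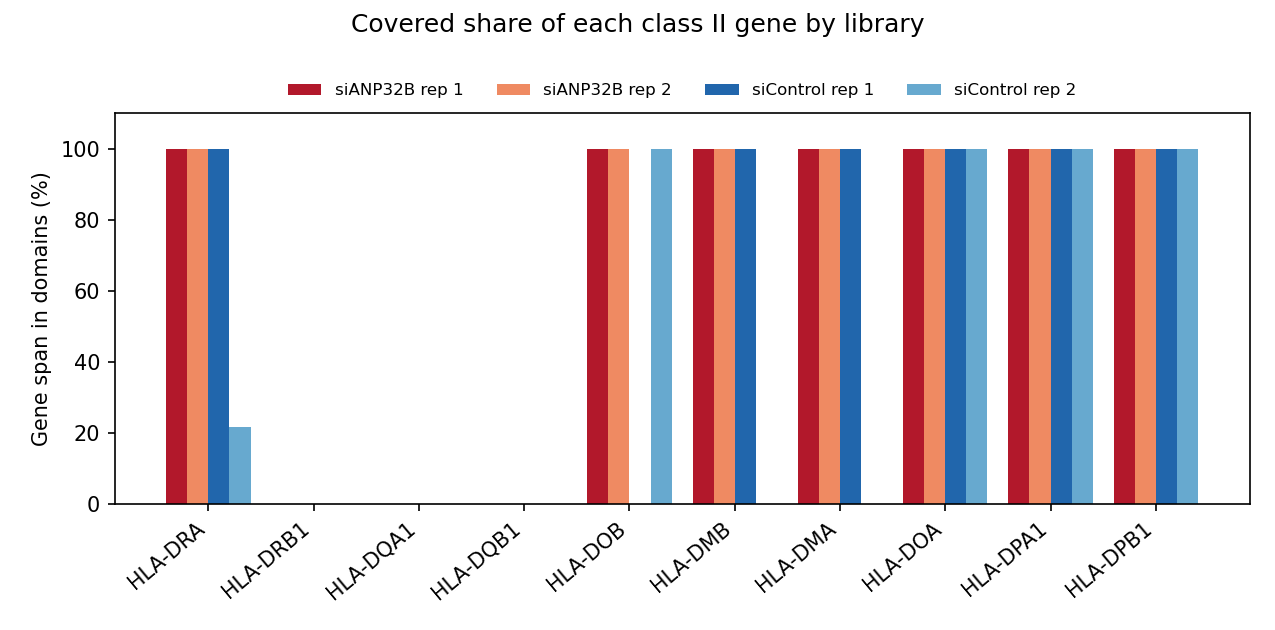
Percent of each member's annotated span in domains, with genes in chromosomal order and 1 bar per library (siANP32B in red tones, siControl in blue tones, no error bars). HLA-DOA, HLA-DPA1 and HLA-DPB1 stand at 100% in all 4 libraries, HLA-DRB1, HLA-DQA1 and HLA-DQB1 at 0%, and the other 4 genes differ between the siControl libraries.

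HLA-DPA1 and HLA-DPB1 encode the alpha and beta chains of HLA-DP and overlap by 4.76 kb on the reference. HLA-DPA1 spans 33064569 to 33080748 and HLA-DPB1 33075990 to 33089696 on chromosome 6. In siANP32B replicate 1 they lay in a domain of 399 kb (32851001 to 33250000), and in siANP32B replicate 2 in one of 224 kb (32985001 to 33209000). In siControl replicate 1 the domain was 82 kb long (33022001 to 33104000), and in siControl replicate 2 it was 222 kb long (32981001 to 33203000). The shortest of these still reached 42.6 kb before HLA-DPA1 and 14.3 kb past HLA-DPB1, and no domain border fell in either gene. With domains above a score of 72.4, each gene was at 0% in siANP32B and averaged 50% in siControl libraries. That 50% rested on siControl replicate 1 alone, whose domain over the DP genes scored 73.4, close to the limit. With 50 kb flanks HLA-DPA1 was covered by 100% in both siANP32B libraries and by 89.7% and 100% in the siControl libraries.

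HLA-DOA, the alpha chain of the inhibitor HLA-DO, spans 33004182 to 33009591 and was covered by 100% in all 4 libraries. It shared its domain with the DP genes in both siANP32B libraries and in siControl replicate 2. In siControl replicate 1 it had a domain of its own of 37 kb (32979001 to 33016000), with a gap of 6 kb before the DP domain. The left border of the HLA-DOA domain lay 19.2 kb before the gene in siANP32B replicate 2, against 25.2 and 23.2 kb in siControl replicates 1 and 2. In siANP32B replicate 1 the domain began 153.2 kb before the gene.

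HLA-DMB and HLA-DMA encode the chains of the peptide exchange factor HLA-DM and lie side by side, from 32934636 to 32941028 and from 32948618 to 32953097. Both were covered by 100% in the siANP32B libraries and in siControl replicate 1, and by 0% in siControl replicate 2. The domain over them was 399 kb in siANP32B replicate 1 and 55 kb in siANP32B replicate 2 (32901001 to 32956000), against 108 kb in siControl replicate 1 (32852001 to 32960000). In siControl replicate 2 the nearest domain began 27.9 kb after HLA-DMA. The difference between groups, 50 points for each gene, rested on that library and was 0 without it.

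The gene of the other HLA-DO chain, HLA-DOB (32812763 to 32817002), followed the opposite pattern between the siControl libraries. It was covered by 100% in both siANP32B libraries and by 0% and 100% in siControl replicates 1 and 2. The domain over HLA-DOB ended at 32827000, 10.0 kb after the gene, in the 3 libraries that had one. HLA-DOB is on the minus strand, so that end lies on its promoter side. The start of the domain was less fixed. It lay 30.8 and 64.8 kb before the gene in siANP32B replicates 1 and 2 and 46.8 kb before it in siControl replicate 2. With 50 kb flanks HLA-DOB was covered by 70.3% and 61.6% in siANP32B and by 14.4% and 58.5% in siControl libraries, groups that did not overlap (exact permutation p = 0.333, two-sided).

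HLA-DRA, the nearly invariant alpha chain of HLA-DR (32439887 to 32445046), lay in a domain, wholly or in part, in each library. It was covered by 100% in both siANP32B libraries and by 100% and 21.6% in siControl replicates 1 and 2. The domain ended 32.0 and 27.0 kb after the gene in siANP32B replicates 1 and 2 and 17.0 kb after it in siControl replicate 1. In siControl replicate 2 it ended inside HLA-DRA, at 32441000, and a further domain of 34 kb began at 32452001. The bases between 32391001 and 32441000, with BTNL2 and the first part of HLA-DRA, were in domains of all 4 libraries.

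HLA-DRB1, the most variable of the HLA-DR beta chain genes (32578775 to 32589848), was at 0% in all 4 libraries, as were HLA-DQA1 (32637406 to 32655272) and HLA-DQB1 (32659467 to 32666657), the alpha and beta chains of HLA-DQ. Domains were called close by. A short domain lay between HLA-DRB1 and HLA-DQA1 in 3 libraries, of 26 kb in both siANP32B libraries and 20 kb in siControl replicate 1. Its distance from HLA-DRB1 was 8.15 and 15.2 kb in siANP32B replicates 1 and 2 and 1.15 kb in siControl replicate 1, and in siControl replicate 2 the nearest domain was 92.8 kb away. For HLA-DQB1 the nearest domain was 35.5 and 28.5 kb away in siANP32B and 48.5 and 17.3 kb away in siControl libraries.

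With 50 kb flanks HLA-DRB1 was covered by 23.4% in both siANP32B libraries and by 18.0% and 0% in the siControl libraries, and HLA-DQA1 by 22.1% in both siANP32B and by 17.0% and 18.0% in the siControl libraries. These 2 genes and HLA-DOB, 3 of 10 members, had both siANP32B libraries above both siControl libraries in the flanked span, and no member had both below. Over all protein-coding genes with the same flanks the shares were 18.8% and 7.11%. The flanked spans of neighbouring members overlap, so that they repeat the same sequence.

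Stretches without a domain in any library came to 182 of the 751 bins of 1 kb that touch the interval. The longest, 105 kb from 32486001 to 32591000, held HLA-DRB1, its paralogue HLA-DRB5 and the pseudogene HLA-DRB6. The next, 53 kb from 32631001 to 32684000, held HLA-DQA1 and HLA-DQB1. The third, 24 kb from 32827001 to 32851000, held PSMB8, a subunit of the immunoproteasome, and the larger part of TAP2 and TAP1, which form the peptide transporter of the class I pathway. PSMB8 itself was at 0% in all 4 libraries.

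The DRB and DQ genes differ widely between chromosomes of different people and have close copies, and the sources used here do not give how reads matching several copies were treated. Over the aligned part of the RefSeq promoter windows, end gaps left out, HLA-DRB1 and HLA-DRB5 were 91.8% identical, HLA-DQA1 and HLA-DQA2 85.7%, and HLA-DQB1 and HLA-DQB2 80.7%. HLA-DQA2, the copy of HLA-DQA1, was covered by 100% and 0% in siANP32B and by 0% and 100% in siControl libraries. HLA-DQB2 was covered by 100% in both siANP32B libraries and by 0% and 52.5% in the siControl libraries, groups that did not overlap (exact permutation p = 0.333, two-sided). Of the 10 further loci of the interval described below, HLA-DQB2 was the only 1 whose groups did not overlap. Over all protein-coding genes 8.98% had both siANP32B libraries above both siControl libraries. The part of read placement in the absence of domains over HLA-DRB1 and the DQ genes was not tested, and values at these loci are uncertain.

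In domains of all 4 libraries were 203 of the 751 bins (27.0%), in 5 stretches of 10 to 82 kb. The longest, 82 kb from 33022001 to 33104000, held HLA-DPA1, HLA-DPB1 and the pseudogene HLA-DPA2. Both siANP32B libraries shared 382 bins and both siControl libraries 209. Bins in both siANP32B and neither siControl library numbered 19, in a stretch of 13 kb between HLA-DRB1 and HLA-DQA1 and one of 6 kb that touches HLA-DQB2, and no member lay in them. No bin was in both siControl libraries and neither siANP32B library. A genome-wide count of such bins is not given here. Domains also covered more of the whole genome in siANP32B (18.3% and 18.1%) than in siControl libraries (16.8% and 15.1%).

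The siControl libraries matched each other less than any other pair here. The Jaccard index (shared bins over bins in either) was 0.767 between the siANP32B libraries and 0.400 between the siControl libraries, and 0.557 to 0.695 over the 4 pairs across groups. Bins in both replicates 1 and neither replicate 2 numbered 62, and bins in both replicates 2 and neither replicate 1 numbered 7. The domain of 399 kb in siANP32B replicate 1 ranked 103 by length among the 7530 of its list. The same stretch held 3 domains with 312 kb in siANP32B replicate 2, 5 domains with 351 kb in siControl replicate 1 and 1 domain with 222 kb in siControl replicate 2.

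The 7 covered members are not 7 separate domains. In siANP32B replicates 1 and 2 all 7 lay in 3 and 4 domains. In siControl replicate 1, 6 of them lay in 4 domains, without HLA-DOB, and in siControl replicate 2, 5 of them lay in 3 domains, without HLA-DMB and HLA-DMA and with HLA-DRA in part. The 21 domains that touch the interval were low in the caller's score. In siANP32B libraries the median score of these domains was 56.2 and 37.3, against 70.1 and 67.5 over the whole lists. In siControl libraries it was 53.7 and 72.3, against 88.9 and 97.7 over the whole lists. Of the 21, 19 scored below the median of their own list and 13 outscored less than 25% of it.

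The HLA-DRA domain scored 26.2 and 34.5 in siANP32B and 53.8 and 72.3 in siControl libraries, above 3.15% and 9.0% of the siANP32B lists and 15.9% and 24.8% of the siControl lists. The domain over the DP genes scored 46.5 and 64.5 in siANP32B and 73.4 and 50.8 in siControl libraries, above 21.4% and 46.2% of the siANP32B lists and 35% and 6.15% of the siControl lists. The score is the caller's own and its scale is not given, so apart from the common limit of 72.4 it served to rank domains within a list.

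**Figure D4:**
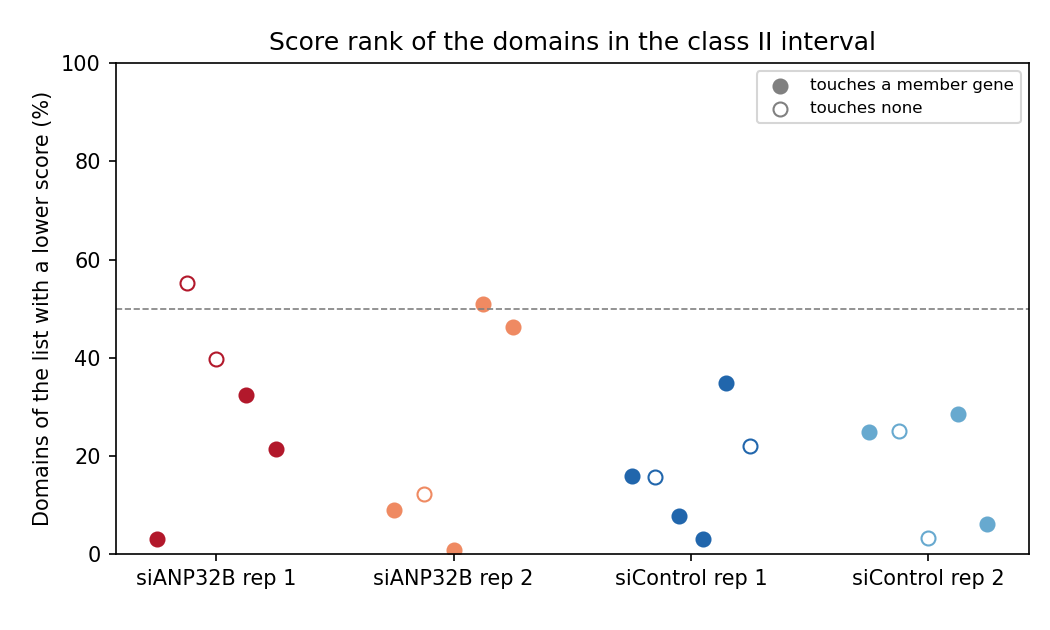
Score rank of the 21 domains in the class II interval, as the percent of domains in the same list with a lower score, by library; filled points touch a member gene, open points touch none, and the dashed line marks 50%. All but 2 domains, 1 in each siANP32B library, lie below the line.

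Few of these domains entered the authors' comparison of siANP32B with siControl. In the authors' deposited table of 4474 tested regions, 1 lay within 50 kb of a member, from 33042001 to 33065000 (23 kb). This region takes up the HLA-DPA1 end of the space between HLA-DOA and HLA-DPA1, reaches 432 bases into the end of HLA-DPA1, and lies within 50 kb of HLA-DOA, HLA-DPA1 and HLA-DPB1. The other 7 members had no tested region within 50 kb. The next tested regions of the authors' deposited table lay 952.9 kb before the interval and 824.3 kb after it.

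The level of macroH2A1 in that region did not pass the test. The log2 fold of its representative window in the authors' deposited table was +0.04, siANP32B over siControl, with a p-value of 0.816 and a false discovery rate of 0.856. None of its 14 windows was counted as up and none as down in the authors' deposited table. Called regions thus numbered 0 of 1 near the members, and 1 region is too few to give a share. Over all regions of the authors' deposited table, at a false discovery rate under 0.05, 58.4% were called lower, 3.82% higher and 0.0671% mixed. The region near the members had a fold above those of 90.8% of the tested regions, whose median was -0.54 in the authors' deposited table. It was covered by domains over 100% of its length in all 4 libraries.

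**Figure D5:**
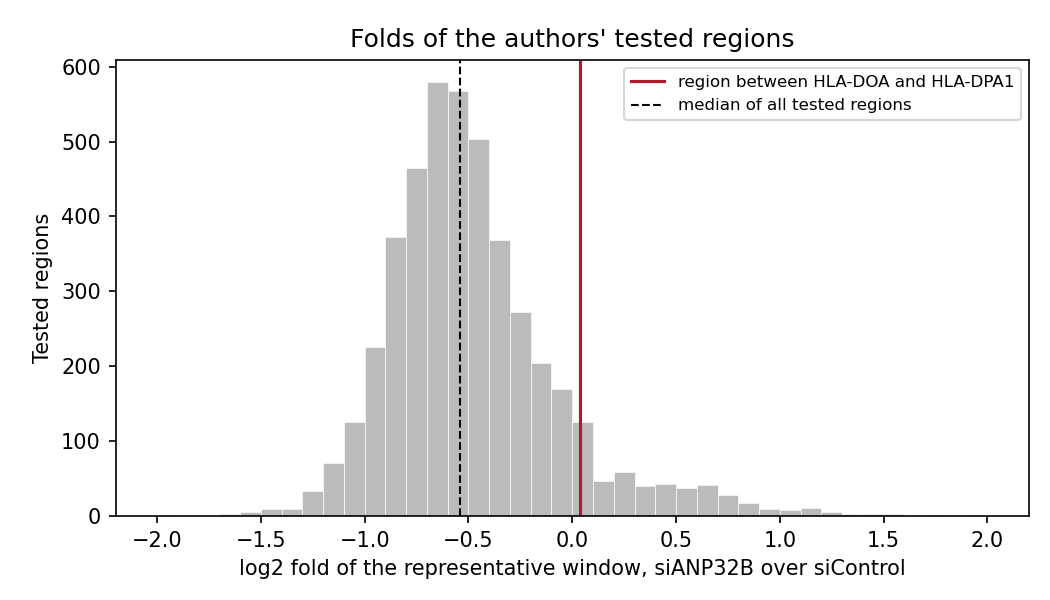
Log2 folds of the representative windows of all 4474 regions in the authors' deposited table (siANP32B over siControl, horizontal axis) by number of regions (vertical axis). The red line marks the region between HLA-DOA and HLA-DPA1 at +0.04 and the dashed line the median of all regions at -0.54.

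The authors' deposited table does not state which siRNA stands on top of the fold. This was read from the domain lists over called regions, all outside the class II interval. Called regions with a positive fold in the authors' deposited table were covered by 97.8% and 97.9% in siANP32B and by 84.2% and 75.7% in siControl libraries (n = 173), and those with a negative fold by 90.2% and 91.3% in siANP32B and by 95.3% and 93.3% in siControl libraries (n = 2614). The scaling of the libraries is not given in these sources, and another scale would shift all folds together. Of the sequence in domains of all 4 libraries, 11.3% was in tested regions in the class II interval (23 of 203 kb), 23.4% on chromosome 6 and 32.3% over the genome. Domains that held a tested region had higher scores, with a median rank above 68.5% to 72.7% of their list, against 36.6% to 37.2% for domains that held none.

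Of the further loci listed from the class II interval, 10 of 11 were matched, and none had a tested region. HLA-DRB9, HLA-DPA2, HLA-DPA3 and HLA-DPB2, all pseudogenes, were covered by 100% in all 4 libraries. HLA-DRB5, HLA-DRB6 and HLA-DQB1-AS1 were at 0% in all 4. Of 12 matched neighbours, 5 were at least 50% covered in all 4 libraries, among them BTNL2, a butyrophilin-like gene beside HLA-DRA, and COL11A2, a collagen gene beyond the DP genes, each at 100%. NOTCH4, a NOTCH receptor gene, was covered by 100% in both siANP32B libraries and by 7.07% in both siControl libraries. It was the only 1 of the 12 neighbours whose groups did not overlap. Over all protein-coding genes 8.98% had both siANP32B libraries above both siControl libraries. In siANP32B replicate 2 NOTCH4 lay in the same domain as HLA-DRA (32187001 to 32472000).

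Genes that control or load class II molecules, which lie outside the class II interval, were less covered than the members. Of 13, no base was covered in 7 and 10 in siANP32B libraries and in 6 and 9 in siControl libraries. Of all protein-coding genes, 59.1% and 63.6% had no covered base in siANP32B and 61.7% and 68.5% in siControl libraries. Of the same 13, 1 was at least 50% covered in all 4 libraries and 3 (RFXAP, NFYC and CREB1) were at 0% in all 4. CIITA, the class II coactivator, was covered by 100% and 0% in siANP32B and by 89.6% and 80.4% in siControl libraries. CD74, the invariant chain, was covered by 34.7% and 16.9% in siANP32B and by 34.7% and 8.07% in siControl libraries. CTSS, a protease that trims the invariant chain, was covered by 74.7% and 80.3% in siANP32B and by 100% in both siControl libraries. It held a region of 16 kb on chromosome 1 (150737001 to 150753000) that fell by 0.85 on the log2 scale in the authors' deposited table (false discovery rate 0.000578). No other gene of the 13 touched a tested region, and 58.4% of all tested regions were called lower. CTSS had both siANP32B libraries below both siControl libraries, as had 2.92% of all protein-coding genes. CTSL of the same list had both above (100% and 16.5% against 0% in both siControl libraries), as had 8.98%.

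Of 7 genes of interferon gamma signalling, the pathway that induces class II expression, 2 touched a tested region, and both regions were lower in the authors' deposited table, as were 58.4% of all its regions. JAK1, a kinase of the receptor, held one of 46 kb with a log2 fold of -0.91 (false discovery rate 6.59e-05), and SOCS1, an inhibitor of the pathway, lay in one of 129 kb with -0.76 (false discovery rate 0.000201), of which the gene takes up 1.79 kb. IFNGR1 and IFNGR2, the receptor chains, JAK2, its other kinase, and IRF1, a transcription factor of the pathway, had no tested region. JAK1 was covered by 41.4% and 36.6% in siANP32B and by 31.1% and 36.7% in siControl libraries.

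The protein-coding genes off chromosome 6 with covered shares most like the members' mean were CPAMD8, GNA14, COG1, EFNA4-EFNA3 and FHL2. Likeness was the summed absolute difference over the 4 libraries, and it ran from 11.1 points for CPAMD8 to 20.4 points for FHL2. CPAMD8 was covered by 70.9% and 69.3% in siANP32B and by 58.2% and 49.9% in siControl libraries. It was covered in part in each library, while single members were at 0% or 100% with the exception of HLA-DRA in siControl replicate 2.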

How the data were processed

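Domains and tested regions were made by the authors. The submitters' processing notes name build hg38 and the tools SICER, edgeR, Bowtie2, Trim Galore, SAMtools and deepTools, with neither versions nor settings. For each anti-macroH2A1 library the authors deposited 1 domain list, with a score per domain whose scale is not stated. The authors' deposited table gives, per the file headers, for each region its numbers of windows, p-value and false discovery rate, and the fold of a representative window, read as log2 by edgeR's convention. Adjusting the deposited p-values over the 4474 regions by Benjamini-Hochberg gave the deposited rates to within 1.11e-15. The table holds no values per library, so no count test was made.

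Domain starts were read as counted from 0 and the deposited end as the last base. Covered lengths were computed with Python 3.11.15 and pandas 2.3.3 on spans from the RefSeq table, which gives no exons, and class II loci of alternate haplotypes were left out. Promoters were aligned with Biopython 1.88. Coverage was tested on simulated domains. Groups were compared by exact permutation over libraries. The members and lists were chosen with earlier results of these data known. All members are named. Of the other lists, genes in called regions and up to 4 with the highest covered share were to be named. Others, such as CIITA, CD74, CTSL, HLA-F, TAPBP and NOTCH4, were chosen after their values were seen. Alternatives were libraries left out, a replicate block, other score limits, joined or filtered domains, other flanks and a stricter false discovery rate.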

Additional observations from a re-analysis of the deposited data

How the results depend on the processing

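Higher coverage in siANP32B libraries, in kb of the interval and as a mean over the members, reversed under 1 of the alternatives tried. Several of the others could not have reversed it. With both siANP32B libraries above both siControl libraries, leaving out 1 library keeps the direction, and the replicate block reuses the same difference. When domains had to score above 72.4, the highest lower quartile of the 4 lists, the interval difference was -75.5 kb (13 kb in siANP32B, 88.5 kb in siControl libraries), the mean covered share differed by -15.0 points, and HLA-DOB, HLA-DPA1 and HLA-DPB1 each by -50.0 points. The cause was not tested. This limit left 3529 and 3287 domains in the siANP32B lists and 5683 and 6083 in the siControl lists. With the best-scored 7404 domains of each list the differences were 264.3 kb and 48.9 points. This removed 126 and 0 domains in siANP32B and 1219 and 712 in siControl lists, so it could lower little but the siControl values. Leaving out 1 library gave 32.0 to 116.9 kb and 10.0 to 27.8 points. Without siControl replicate 2 the differences of HLA-DRA, HLA-DMB and HLA-DMA were 0, and without siControl replicate 1 that of HLA-DOB was 0. Other flanks of the interval gave 72.0 kb with none and with 100 kb, and member spans with flanks of 50 kb gave 14 points. Closing gaps of up to 3 kb or dropping domains under 5 kb left both values as they were. No gap or domain in the interval was that short, so neither step could change them. The count of 1 tested and 0 called regions was the same under each alternative. A stricter false discovery rate could not have raised the 0 called.

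The labels do not say that replicate numbers mark shared batches. With the replicate number as a block the differences were again 74.4 kb and 18.9 points, with an exact sign-flip p of 0.5, the smallest for 2 pairs. Deviations of libraries with the same number correlated at 0.0819 over 20035 protein-coding genes. The depth of the libraries is unknown, and absence of a called domain is not absence of macroH2A1.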

Other observations

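Among the class I loci of the major histocompatibility complex, HLA-G was covered by 100% in all 4 libraries. HLA-E was covered by 100% in both siANP32B libraries and by 100% and 10.5% in siControl libraries, and HLA-B by 100% and 0% in siANP32B and by 100% in both siControl libraries. None of the 10 class I genes and partners had a tested region in the authors' deposited table. B2M, the light chain of class I molecules on chromosome 15, was at 0% in both siANP32B libraries and at 100% and 0% in siControl libraries. Of the 10, 2 had both siANP32B libraries above both siControl libraries and none had both below, against 8.98% and 2.92% of all protein-coding genes. These were HLA-F (40.4% and 3.76% against 0% in both siControl libraries) and TAPBP (97.9% and 21.4% against 7.49% and 0%).

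In the class III segment coverage varied within both groups. TNF, LTB and AIF1 were covered by 100% and 0% in siANP32B and by 100% and 0% in siControl libraries. Of 14 class III genes, 7 were fully covered in siANP32B replicate 1 and none in siANP32B replicate 2, against 5 and 2 in siControl replicates 1 and 2, and none was at least 50% covered in all 4. Of the 14, 1 (PBX2) had both siANP32B libraries above both siControl libraries and 2 (TNXB and CYP21A2) had both below. Over all protein-coding genes the shares were 8.98% and 2.92%. PBX2 was covered by 100% and 58.5% in siANP32B and by 0% in both siControl libraries. CYP21A2 has a near-identical pseudogene copy and is uncertain for that. It was covered by 0% in both siANP32B libraries and by 100% in both siControl libraries. None of the 14 had a tested region in the authors' deposited table. C4A and C4B, near-identical copies, were at 0% in all 4 libraries.

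Among genes of antigen-presenting cells, ITGAX and CD14 were covered by 100% in all 4 libraries, and PTPRC, MS4A1 and CD79A by 0%. Among 7 hepatocyte genes, FGB was covered by 100% in all 4 libraries, and ALB by 15.8% and 30.2% in siANP32B and by 56.5% and 55.1% in siControl libraries. ALB was the only 1 of the 7 whose groups did not overlap. Over all protein-coding genes 2.92% had both siANP32B libraries below both siControl libraries. Mean covered shares of TTR, AFP and SERPINA1 were higher in siANP32B libraries, that of APOA1 was lower, and APOA2 was at 0% in all 4 libraries. The regions over FGB and TTR had log2 folds of +0.46 and +0.48 in the authors' deposited table and did not pass (false discovery rates 0.0782 and 0.115).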
